A study of Homo sapiens with 9 samples.

Results

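The genes described here encode the matrix metalloproteinases (MMPs), the ADAMTS proteases and their tissue inhibitors (TIMPs). They were chosen by symbol as MMP or ADAMTS followed by a number, MMP23A and MMP23B included, and TIMP1 to TIMP4. This gave 45 of the 52158 named genes of the count table, namely 22 MMP, 19 ADAMTS and 4 TIMP genes. MMP12 and MMP28 also fit the rule but were not among the named genes, so nothing is said of them. RNA was sequenced from 9 established human lines, ESO-26, ESO-51, FLO-1, JH_EsoAd1, OACP4_C, OAC_5.1_C, OE19, OE33 and SK-GT-4. The labels give oesophageal adenocarcinoma as the cell type and, for all 9, gastric cardia adenocarcinoma as the source. All were grown under normal conditions to 80% confluency, and no line serves as a control for another. With 1 column of counts per line, differences between lines have no replicates and were not tested, and intervals cover counting error only.

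MMPs are secreted or membrane-anchored zinc proteases that are made as inactive precursors and cut collagens, gelatin, laminins and other matrix or cell surface proteins. ADAMTS proteases are secreted, carry thrombospondin-type repeats and include enzymes that cleave the large proteoglycans, remove the propeptides of fibrillar collagens or cut von Willebrand factor. TIMPs block the active site of MMPs, and TIMP3 also inhibits several ADAMTS and ADAM proteases. In carcinomas much MMP is made by stromal fibroblasts and leukocytes, whereas MMP7 is made mainly by the epithelial cells themselves.

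The tables of the lines held 16801179 (ESO-26) to 69881539 (FLO-1) counts, and levels are given as CPM, counts relative to the library total after TMM scaling. The sum of 6 epithelial markers was lowest in ESO-26 (163 CPM) and OE33 (1189 CPM), against 4482 to 15412 CPM in the other libraries. Of 7 fibroblast markers the sum reached 329.7 CPM in ESO-26, of which the collagen gene COL3A1 gave 311 CPM, and 1.96 to 88.7 CPM elsewhere. The leukocyte gene PTPRC reached at most 1.81 CPM, among 5 blood cell markers that otherwise stood at or below 1.98 CPM outside SK-GT-4, where LYZ alone gave 2090 CPM. Of 4 endothelial markers the highest was CDH5 at 29.8 CPM in JH_EsoAd1. OE19 is known for an amplified ERBB2 gene, but the library labelled OE19 held 185 CPM of ERBB2 and the library labelled SK-GT-4 held 18325 CPM, so each line name below stands for the library with that label.

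Of the 45 genes, 36 (80%) reached 1 CPM in at least 1 library, against 37.8% of all 52158 genes. All members but the pseudogene MMP23A are annotated as protein coding, whereas the table also holds noncoding RNAs and pseudogenes. No share over protein-coding genes alone was made, so this and the later shares of all genes do not compare like with like. Per library, 12 (ESO-51 and SK-GT-4) to 25 (JH_EsoAd1) of the 45 reached 1 CPM. The share of all genes that did so was 27.3% in OACP4_C, 26.2% in OE19, 29.2% in FLO-1, 27.7% in SK-GT-4, 26.5% in ESO-26, 27.2% in OE33, 27.8% in ESO-51 and in OAC_5.1_C and 28.3% in JH_EsoAd1. Few members were general. MMP14, MMP15 and TIMP1 were the 3 that reached 1 CPM in all 9 libraries, or 8.33% of the 36, against 53.2% of the 19719 genes measured by the same rule. The remaining 9 genes, MMP8, MMP21, MMP26, MMP27, ADAMTS5, ADAMTS8, ADAMTS18, ADAMTS19 and ADAMTS20, stayed under 1 CPM everywhere, and MMP26, MMP27 and ADAMTS5 had 0 counts in every library.

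**Figure D1:**
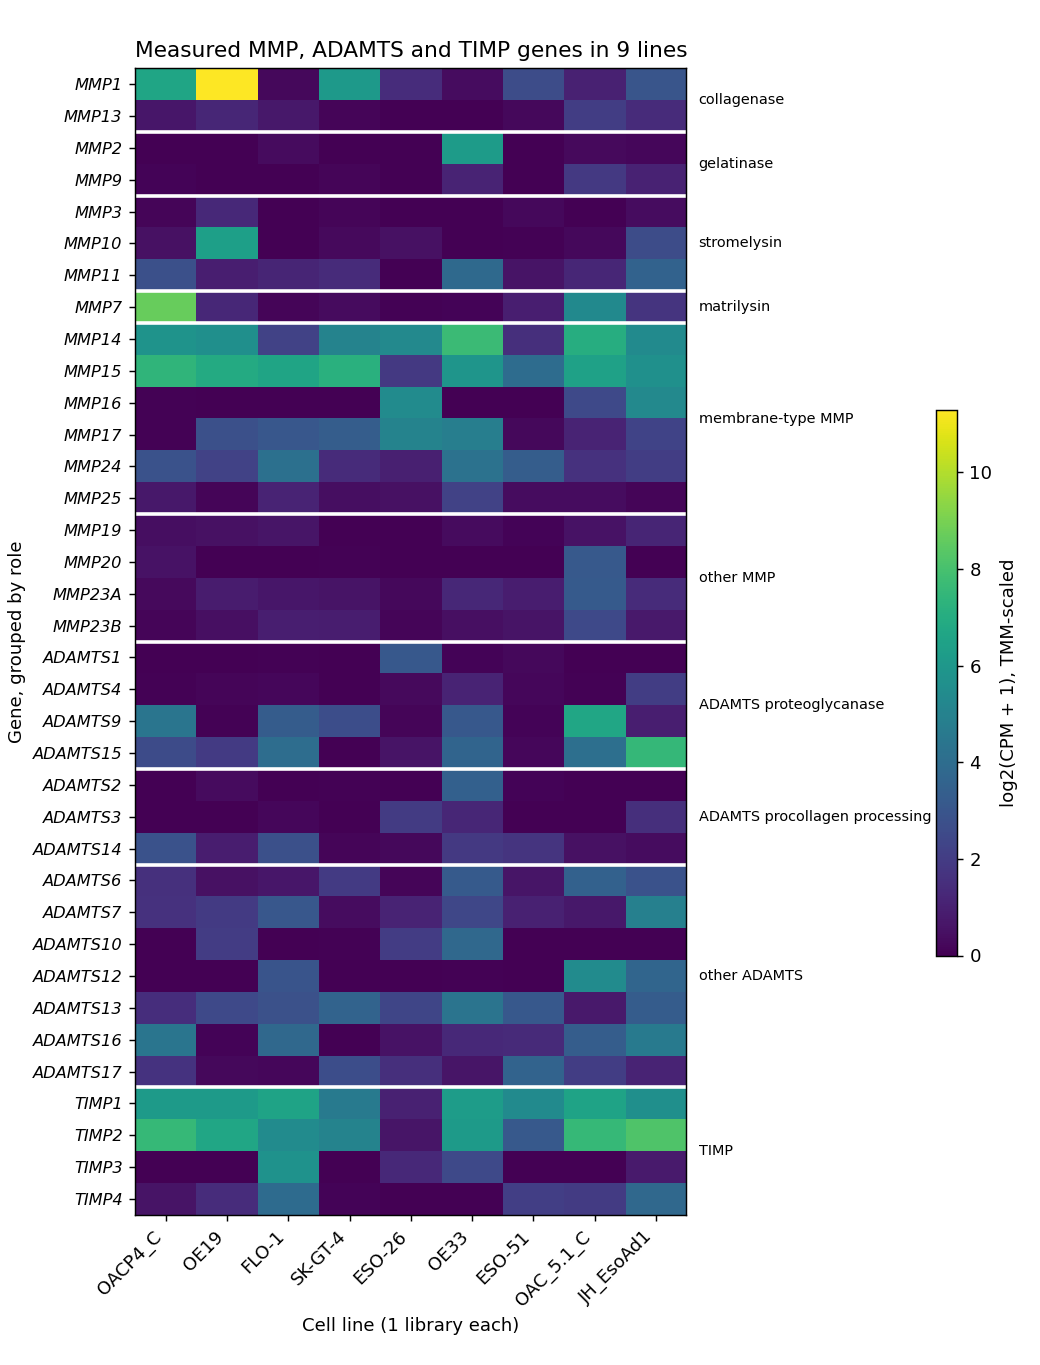
Colour shows log2(CPM + 1) of the 36 measured genes (rows, grouped by role) in 9 lines (columns, 1 library each). MMP15, MMP14, TIMP1 and TIMP2 are bright in most columns, while MMP1, MMP2, MMP7, MMP10 and TIMP3 are bright in few.

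Differences between lines were large. The highest and lowest libraries lay at least 16-fold apart (4 units of log2(CPM + 1)) for 16 of the 36 measured genes, or 44.4%, against 15.8% of all measured genes. A call of higher needed 5 CPM in a library and a level, as log2(CPM + 1), at least 4-fold above each of the other 8, and a call of lower was made where it lay at least 4-fold below each of them and all of those reached 5 CPM. By this rule 10 of the 36 were higher in 1 library, or 27.8% against 5.51% of all measured genes. Without the filter for measured genes this was 22.2% of the 45 against 2.08% of all genes of the table. In turn 3 of the 36 were lower in 1 library, or 8.33% against 2.06% (6.67% of the 45 against 0.778% of all genes). The genes called higher were MMP1 and MMP10 in OE19, MMP7 in OACP4_C, MMP2 and ADAMTS2 in OE33, MMP20 and ADAMTS9 in OAC_5.1_C, ADAMTS15 in JH_EsoAd1, ADAMTS1 in ESO-26 and TIMP3 in FLO-1. Of these, MMP2, MMP20, ADAMTS1 and ADAMTS2 reached 1 CPM in no other library, so they counted as measured only through the library of their call. The 3 called lower, MMP15, TIMP1 and TIMP2, were all lower in ESO-26. None was called in SK-GT-4 or ESO-51, where 0.251% and 0.194% of all genes of the table were called higher. No member was called lower outside ESO-26. In these libraries the share of all genes called lower was 0.0307% in OACP4_C, 0.113% in OE19, 0.023% in FLO-1, 0.107% in SK-GT-4, 0.0882% in OE33, 0.0403% in ESO-51, 0.0211% in OAC_5.1_C and 0.0192% in JH_EsoAd1.

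Several of these genes are neighbours on chromosome 11q22. With genes outside the 45 left out, the RefSeq annotation orders them as MMP7, MMP20, MMP27, MMP8, MMP10, MMP1, MMP3 and MMP13. The promoters of MMP7, MMP20 and MMP10 are shown because, among the available promoters of 11q22 genes, these held the pattern TGANTCA. They are 300 bases from RefSeq on GRCh38.p14, running from 250 bases before the annotated start to 50 after it, a build other than the GRCh37 of the counts. Capitals mark TGANTCA, a pattern that includes TGAGTCA, the classical element bound by the AP-1 factors FOS and JUN.
MMP7 (chr11:102530698-102530997, minus strand): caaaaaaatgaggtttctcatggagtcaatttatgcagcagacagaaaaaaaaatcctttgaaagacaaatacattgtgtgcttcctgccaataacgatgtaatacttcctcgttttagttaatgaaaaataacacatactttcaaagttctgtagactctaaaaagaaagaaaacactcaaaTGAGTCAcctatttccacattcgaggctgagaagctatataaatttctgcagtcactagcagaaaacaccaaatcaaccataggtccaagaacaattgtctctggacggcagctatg
MMP20 (chr11:102625283-102625582, minus strand): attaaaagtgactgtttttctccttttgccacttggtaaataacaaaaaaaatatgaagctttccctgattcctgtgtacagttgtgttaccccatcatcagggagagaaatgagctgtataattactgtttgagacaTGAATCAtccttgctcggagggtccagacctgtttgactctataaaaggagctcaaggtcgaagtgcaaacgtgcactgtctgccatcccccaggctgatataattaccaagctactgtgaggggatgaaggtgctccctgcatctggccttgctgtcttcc
MMP10 (chr11:102780579-102780878, minus strand): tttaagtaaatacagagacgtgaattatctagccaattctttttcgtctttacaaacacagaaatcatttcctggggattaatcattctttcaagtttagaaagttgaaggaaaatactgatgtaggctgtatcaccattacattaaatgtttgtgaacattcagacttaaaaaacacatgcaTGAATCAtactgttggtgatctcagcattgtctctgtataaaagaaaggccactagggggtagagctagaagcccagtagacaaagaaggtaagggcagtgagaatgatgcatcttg
Both strands were searched, and every TGAGTCA is also a TGANTCA. The MMP7 promoter held TGAGTCA, starting 67 bases before the annotated start. Those of MMP10 and MMP20 held TGAATCA, starting 67 and 112 bases before it. Of 35116 promoters of the same length, 4.95% held TGAGTCA and 7.71% held TGANTCA. Promoters of 27 of the 45 genes were available. Of these 1 (MMP7) held TGAGTCA and 4 (MMP7, MMP10, MMP20 and ADAMTS12) held TGANTCA. Since the promoters shown above were picked for holding TGANTCA, that they share it is not a result. The promoter of MMP1 was not available, so it was not searched for either pattern. A match of letters is not a measured binding site.

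MMP1, the interstitial collagenase that opens the triple helix of fibrillar collagen, spanned the widest range of all members. It stood at 2521 CPM in OE19 (95% interval 2503 to 2540), against 97.6 CPM in OACP4_C, 66.005 CPM in SK-GT-4, 6.79 CPM in JH_EsoAd1, 5.09 CPM in ESO-51, then 1.73 CPM in ESO-26, 1.07 CPM in OAC_5.1_C, 0.302 CPM in OE33 and 0.200 CPM in FLO-1. OE19 thus lay 4.68 log2 units above the next library, and OACP4_C and SK-GT-4 formed a middle level well below it. In OE19 the gene took 0.236% of all counts (Wilson 95% interval 0.234% to 0.238%) and ranked 30 among all genes by count. MMP10 (stromelysin-2), a neighbour that degrades proteoglycans and activates other MMP precursors, was also called higher in OE19, where 0.136% of all genes were. Its level was 82.7 CPM in OE19, against 5.15 CPM in JH_EsoAd1 and at most 0.431 CPM in the other libraries, a gap of 3.77 log2 units (5.87 without JH_EsoAd1). MMP3 (stromelysin-1), next to MMP1 on its other side, likewise had its highest value in OE19, 1.46 CPM, against at most 0.297 CPM elsewhere, but it was too low to be called. WTAPP1, an annotated pseudogene that overlaps MMP1 and MMP3, was between 0 and 1.85 CPM.

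MMP7 (matrilysin), the small epithelial protease that lacks the hemopexin domain, had another pattern. OACP4_C held 405 CPM (95% interval 399.9 to 410.2), against 40.7 CPM in OAC_5.1_C, 2.23 CPM in JH_EsoAd1, 1.39 CPM in OE19, 0.912 CPM in ESO-51, 0.257 CPM in SK-GT-4, 0.120 CPM in FLO-1, 2 counts in OE33 and 1 count in ESO-26. It was the one member called higher in OACP4_C, where 0.0709% of all genes were, with a gap of 3.28 log2 units (6.97 without OAC_5.1_C). The OAC_5.1_C library, second for MMP7, was first for the adjoining MMP20 (enamelysin, known from tooth enamel formation). MMP20 was 7.80 CPM in OAC_5.1_C, against 0.466 CPM in OACP4_C, 1 count in SK-GT-4 and 0 counts in the other 6 libraries. MMP13 (collagenase-3) was also highest in OAC_5.1_C, at 3.15 CPM, followed by 1.59 CPM in JH_EsoAd1 and 1.32 CPM in OE19. MMP8 (neutrophil collagenase), which lies between MMP27 and MMP10, never exceeded 0.103 CPM. The call of MMP20 ended with a pseudocount of 5 CPM (gap 1.23). With deposited FPKM (gap 1.18) MMP20 stayed under the minimum of 5, so no call was possible.

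**Figure D2:**
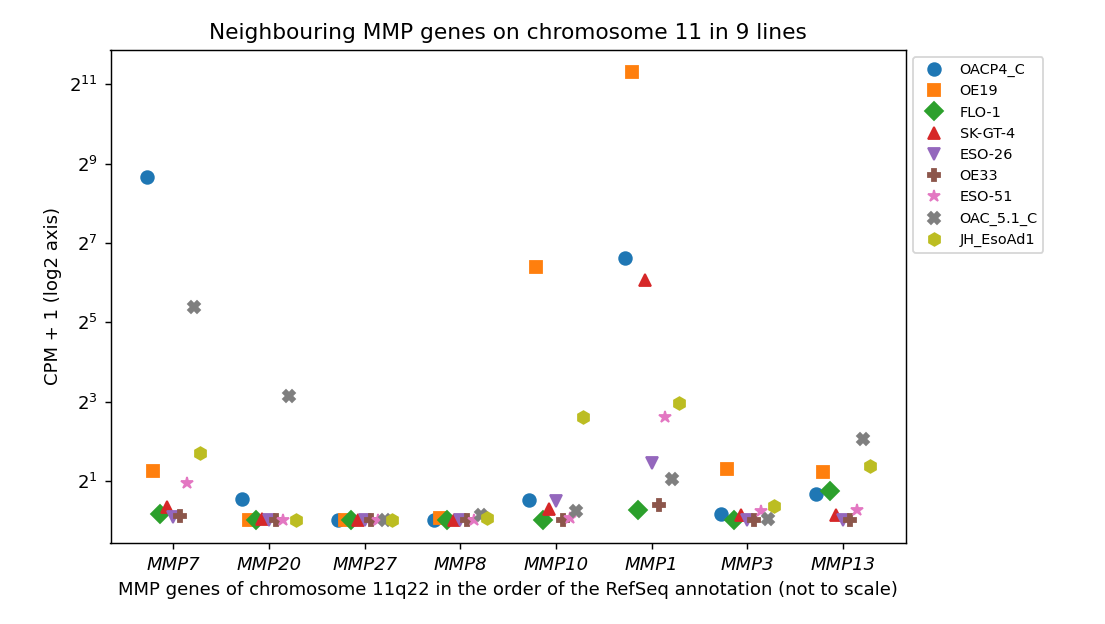
CPM + 1 on a log2 axis for 8 MMP genes in their order on chromosome 11 (spacing not to scale), with 1 symbol per line. OE19 stands at the top for MMP10 (82.7 CPM) and MMP1 (2521 CPM), OACP4_C for MMP7 (405 CPM) and OAC_5.1_C for MMP20 (7.80 CPM).

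Of the gelatinases, 1 was abundant in a single library. MMP2 (gelatinase A), which degrades denatured collagen and type IV collagen, was 71.6 CPM in OE33 (95% interval 68.4 to 74.9), against 0.267 CPM in FLO-1, 0.206 CPM in OAC_5.1_C, 3 counts in JH_EsoAd1, 1 count in OACP4_C and 0 counts in OE19, SK-GT-4, ESO-26 and ESO-51. Its gap of 5.84 log2 units was the widest among the called members. MMP9 (gelatinase B), typical of leukocytes and invasive fronts, reached 2.70 CPM in OAC_5.1_C, 1.21 CPM in OE33 and 1.09 CPM in JH_EsoAd1, and at most 0.0965 CPM elsewhere. Stromelysin-3 (MMP11), in tumours chiefly a fibroblast product, was 13.3 CPM in OE33, 10.6 CPM in JH_EsoAd1 and 5.87 CPM in OACP4_C, with 0.511 to 1.61 CPM in 5 libraries and 0 counts in ESO-26 (floor of 3 counts, 0.173 CPM).

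On chromosome 22 several neighbours of MMP11 were low in ESO-26 too. SMARCB1 on one side had 0 counts in ESO-26, against 20.3 to 62.2 CPM in the other 8 libraries, and CHCHD10 on the other had 1 count, against 6.87 to 51.9 CPM. Farther out, ZNF70 had 0 counts in ESO-26, against 2.22 to 6.25 CPM, whereas SLC2A11 stood at 3.40 CPM there, within the 2.69 to 12.9 CPM of the others. These neighbours were chosen after their values were seen.

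The membrane-type MMPs, which act at the cell surface, held the most widely expressed proteases. MMP15 (MT2-MMP) was 167 CPM in OACP4_C, 143 CPM in SK-GT-4, 118 CPM in OE19, 95.7 CPM in FLO-1, 88.1 CPM in OAC_5.1_C, 58.7 CPM in OE33, 50.6 CPM in JH_EsoAd1 and 15.1 CPM in ESO-51, while ESO-26 held 2.71 CPM. ESO-26 lay 2.11 log2 units under the lowest of the others, one of 3 members called lower there against 0.336% of all genes. That call ended with a pseudocount of 5 CPM (gap -1.38), and without ESO-51 the gap was -3.80. With deposited FPKM (gap -1.08) ESO-51 and JH_EsoAd1 lay under the minimum of 5, so no call was possible. MMP14 (MT1-MMP), the chief cell surface collagenase and activator of the MMP2 precursor, had another order. It was 207 CPM in OE33 (95% interval 201.9 to 212.9), 129.7 CPM in OAC_5.1_C, 55.5 CPM in OACP4_C, 47.97 CPM in OE19, 41.4 CPM in JH_EsoAd1, 38.9 CPM in ESO-26, 32.3 CPM in SK-GT-4, 3.68 CPM in FLO-1 and 1.85 CPM in ESO-51. FLO-1 and ESO-51 stood apart at the low end, and since there were 2 such libraries neither was called lower. Without ESO-51 the low MMP14 level of FLO-1 was called, and without FLO-1 that of ESO-51.

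MMP16 (MT3-MMP) was high in a pair of lines, with 43.1 CPM in ESO-26 (95% interval 40.0 to 46.3) and 39.0 CPM in JH_EsoAd1 (36.3 to 41.8). The intervals of these 2 libraries overlapped. OAC_5.1_C followed at 4.57 CPM, and the other 6 libraries had 0 to 3 counts. Neither library was called, but each was without the other. MMP17 (MT4-MMP), anchored to the membrane by a lipid, was highest in ESO-26 (32.4 CPM) and OE33 (27.3 CPM), between 1.15 and 9.03 CPM in OE19, FLO-1, SK-GT-4, OAC_5.1_C and JH_EsoAd1, and 0.200 CPM in ESO-51, with 2 counts in OACP4_C. MMP24 (MT5-MMP) ran from 0.980 CPM in ESO-26 to 18.0 CPM in OE33, with a median of 3.67 CPM and 16.8 CPM in FLO-1. The overlapping gene MMP24OS stood between 2.70 and 14.7 CPM. MMP25, another lipid-anchored form, was highest in OE33 at 3.70 CPM. Of these 6 membrane-type genes 4 lay over 2-fold above the median of the other 8 libraries in OE33 and 0 below it, and in ESO-51 1 lay above and 3 below. Of all measured genes 12.8% lay above and 10.9% below in OE33, and 12% above and 10% below in ESO-51.

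**Figure D3:**
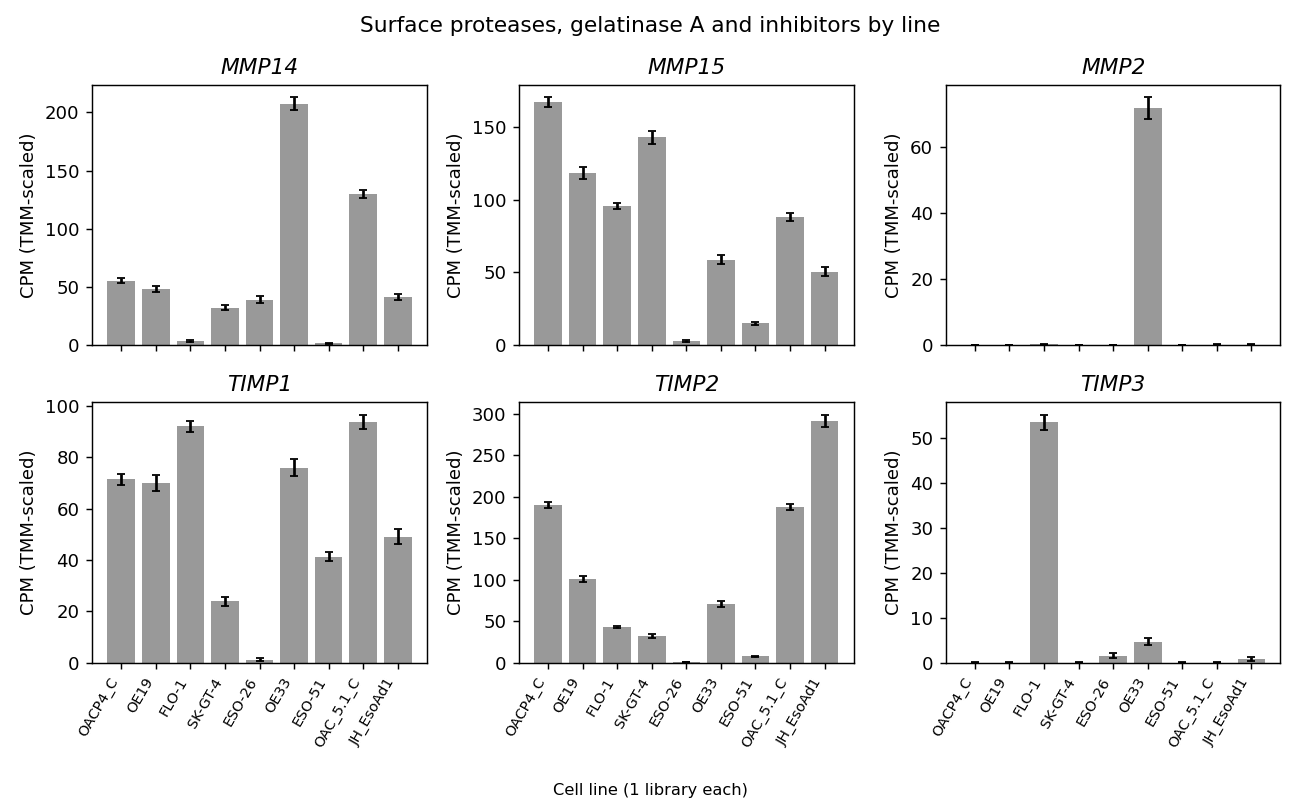
Bars give CPM of MMP14, MMP15, MMP2, TIMP1, TIMP2 and TIMP3 in 9 lines, 1 library each, with exact Poisson 95% intervals for counting error. MMP2 has a single tall bar in OE33 (71.6 CPM), and the bars of MMP15, TIMP1 and TIMP2 are lowest in ESO-26.

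Among the remaining MMPs, MMP23A and MMP23B are near-identical copies whose reads the counting may split, and MMP23A is annotated as a pseudogene. Both were highest in OAC_5.1_C, at 8.19 CPM for MMP23A and 4.67 CPM for MMP23B, and at most 1.59 and 0.907 CPM elsewhere. MMP19 reached 1.24 CPM in JH_EsoAd1 and did not exceed 0.56 CPM in the other libraries.

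The ADAMTS genes above the other libraries were most numerous in OE33 and JH_EsoAd1. In OE33 9 of the 14 measured ADAMTS genes lay over 2-fold above the median of the other 8 libraries and 1 below (median difference 1.19 log2 units). JH_EsoAd1 had 7 above and 1 below (1.06), FLO-1 6 and 2 (0.12), and OAC_5.1_C 5 and 2 (-0.02). In OE19 1 of 14 lay over 2-fold above and 5 below, and in ESO-26 3 lay above and 5 below. The counts above include ADAMTS2 in OE33 and ADAMTS1 in ESO-26, which counted as measured only through that library. Over all measured genes 12.8% lay above and 10.9% below in OE33, and 11.2% and 5.59% in JH_EsoAd1. These shares were 14.4% and 5.64% in FLO-1, and 12.2% and 6.97% in OAC_5.1_C. In OE19 11.6% of all measured genes lay above and 11.6% below, and in ESO-26 12% lay above and 14.4% below.

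Proteoglycan-cleaving members peaked in different lines, ADAMTS4 and ADAMTS15 both in JH_EsoAd1. ADAMTS15, which cleaves aggrecan and versican, was 182 CPM in JH_EsoAd1 (95% interval 176 to 188), against 16.3 CPM in OAC_5.1_C, 15.5 CPM in FLO-1, 11.3 CPM in OE33, 5.00 CPM in OACP4_C, 2.74 CPM in OE19, 0.519 CPM in ESO-26, 0.156 CPM in ESO-51 and 0 counts in SK-GT-4. It was the 1 member called higher in JH_EsoAd1 (0.184% of all genes), with a gap of 3.40 log2 units, and in this library it was the member with the highest FPKM. ADAMTS9, another proteoglycanase, was 102 CPM in OAC_5.1_C (99.5 to 105), against 20.3 CPM in OACP4_C, 8.84 CPM in FLO-1, 7.77 CPM in OE33, 5.37 CPM in SK-GT-4, 0.942 CPM in JH_EsoAd1 and 1 to 3 counts in OE19, ESO-26 and ESO-51. ADAMTS9 and MMP20 were the members called higher in OAC_5.1_C, where 0.245% of all genes were. The RNAs ADAMTS9-AS1 and ADAMTS9-AS2, which overlap ADAMTS9, did not exceed 1.09 CPM. With deposited FPKM the gap of ADAMTS15 (1.36) no longer sufficed. ADAMTS9 (gap 1.24) reached 3.01 FPKM, under the minimum of 5, so no call of it was possible. Per kilobase ADAMTS15 was 32.1 CPM in JH_EsoAd1, against 2.88 CPM in OAC_5.1_C, whereas its FPKM was 6.05 in JH_EsoAd1, against 1.74 in OAC_5.1_C.

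ADAMTS1, an angiogenesis inhibitor and versicanase, was 7.67 CPM in ESO-26, against 0.200 CPM in ESO-51, 2 to 3 counts in OE33 and FLO-1 and 0 counts in the other 5 libraries. This 1 call among 45 genes stood beside 0.347% of all genes called higher in ESO-26. ADAMTS4, an aggrecanase, reached 3.12 CPM in JH_EsoAd1 and 1.17 CPM in OE33. Those of the group with the highest levels, ADAMTS15 and ADAMTS9, were thus not the classical aggrecanases ADAMTS4 and ADAMTS5.

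Of the procollagen-processing enzymes, ADAMTS2 was 10.2 CPM in OE33, against 0.249 CPM in OE19, 0.0889 CPM in ESO-51, 1 count in SK-GT-4 and 0 counts in the other 5 libraries. With MMP2 it was called higher in OE33 (0.347% of all genes). ADAMTS14, a relative with the same activity, was highest elsewhere, at 6.18 CPM in OACP4_C and 5.73 CPM in FLO-1. ADAMTS3 reached 2.94 CPM in ESO-26, 1.83 CPM in JH_EsoAd1 and 1.32 CPM in OE33. A pseudocount of 5 CPM ended the calls of ADAMTS1 (gap 1.28) and ADAMTS2 (1.53). With deposited FPKM (0.57 and 0.73) both stayed under the minimum of 5, so no call was possible.

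ADAMTS12 and ADAMTS7, which both cleave cartilage oligomeric matrix protein (COMP), led in OAC_5.1_C and JH_EsoAd1. ADAMTS12 was 42.4 CPM in OAC_5.1_C, against 11.8 CPM in JH_EsoAd1 and 6.72 CPM in FLO-1, with at most 1 count in the other 6 libraries. ADAMTS7 was 29.5 CPM in JH_EsoAd1, against 7.43 CPM in FLO-1, 4.37 CPM in OE33 and 0.289 to 2.78 CPM in the others. Gaps of 1.76 and 1.86 log2 units kept both below the rule for a call, which ADAMTS12 met without JH_EsoAd1 and ADAMTS7 without FLO-1. The gene of their substrate, COMP, was itself called higher in JH_EsoAd1 (16.8 CPM, against at most 0.490 CPM elsewhere).

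The other ADAMTS genes were spread over the lines. ADAMTS16 was 23.2 CPM in JH_EsoAd1 (21.2 to 25.4) and 20.3 CPM in OACP4_C (19.2 to 21.5), with overlapping intervals, followed by 13.1 CPM in FLO-1 and 9.14 CPM in OAC_5.1_C, and 0 to 1.51 CPM in the other 5 libraries. With library size alone as the scale OACP4_C was higher, at 20.3 CPM against 19.3 CPM. ADAMTS13, the von Willebrand factor protease, was measurable in 8 libraries, from 0.720 CPM in OAC_5.1_C to 19.1 CPM in OE33, with a median of 5.99 CPM. ADAMTS10, which binds fibrillin, was 12.9 CPM in OE33, 3.06 CPM in OE19 and 3.00 CPM in ESO-26, with 1 count in SK-GT-4 and 0 counts in the other 5 libraries. Its close relative ADAMTS6 was 10.4 CPM in OAC_5.1_C, 8.11 CPM in OE33 and 6.15 CPM in JH_EsoAd1, and 0.115 to 2.83 CPM elsewhere. ADAMTS17 ran from 0.147 CPM in FLO-1 over a median of 1.90 CPM to 11.005 CPM in ESO-51, the single measured member that was highest in that library.

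The range over the 9 libraries was 5.54 log2 units for TIMP1, 7.53 for TIMP2, 5.77 for TIMP3 and 3.94 for TIMP4. TIMP1 was 93.8 CPM in OAC_5.1_C (95% interval 91.1 to 96.6), 92.1 CPM in FLO-1 (89.99 to 94.3), 75.8 CPM in OE33, 71.5 CPM in OACP4_C, 69.96 CPM in OE19, 49.1 CPM in JH_EsoAd1, 41.4 CPM in ESO-51 and 23.9 CPM in SK-GT-4, while ESO-26 held 1.04 CPM (18 counts). The first pair could not be ordered, and with library size alone FLO-1 was higher. TIMP2, the inhibitor that also tethers the MMP2 precursor to MMP14, was 291 CPM in JH_EsoAd1, 189.8 CPM in OACP4_C, 188 CPM in OAC_5.1_C, 101 CPM in OE19, 70.5 CPM in OE33, 43.1 CPM in FLO-1, 32.2 CPM in SK-GT-4, 7.78 CPM in ESO-51 and 0.577 CPM in ESO-26 (10 counts). ESO-26 lay 3.61 log2 units under the lowest of the others for TIMP1 and 2.48 for TIMP2. Without ESO-51, the next lowest library for TIMP2, the TIMP2 gap was -4.40. The TIMP2 call ended with a pseudocount of 5 CPM (gap -1.20). With deposited FPKM (-1.49 for TIMP1 and -0.55 for TIMP2) other libraries lay under the minimum of 5, so neither could be called. Epithelial markers were lowest in this library as well (163 CPM), and their part in these low values was not tested.

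TIMP3, the matrix-bound inhibitor, was 53.6 CPM in FLO-1 (51.9 to 55.2), against 4.68 CPM in OE33, 1.499 CPM in ESO-26, 0.743 CPM in JH_EsoAd1, 1 count in ESO-51 and 0 counts in OACP4_C, OE19, SK-GT-4 and OAC_5.1_C. It was called higher in FLO-1 (0.307% of all genes) with a gap of 3.26 log2 units. TIMP4 was 14.4 CPM in FLO-1 (13.5 to 15.3) and 12.99 CPM in JH_EsoAd1 (11.5 to 14.7), followed by 3.33 CPM in ESO-51 and 2.88 CPM in OAC_5.1_C, with 0 counts in ESO-26 and OE33. Of the TIMP genes only TIMP3 thus set FLO-1 apart, since TIMP1 was as high in OAC_5.1_C and TIMP4 was also high in JH_EsoAd1. ESO-26 had none of the 4 above 1.499 CPM. TIMP1, TIMP3 and TIMP4 lie within synapsin genes, and SYN1, SYN2 and SYN3 stayed at or below 6.98 CPM, with SYN2 highest in ESO-26 where TIMP4 had 0 counts. TIMP2 overlaps CEP295NL, and the deposited intersection-not-empty counts of TIMP2 were 1.13 to 1.18 times its union counts, except in ESO-26 where they were equal.

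MMP14, TIMP2 and MMP2 form the surface complex in which the MMP2 precursor is activated. All 3 reached 10 CPM in OE33 alone, at 207, 70.5 and 71.6 CPM. In OACP4_C, OE19, SK-GT-4, OAC_5.1_C and JH_EsoAd1 MMP14 and TIMP2 did so without MMP2, in FLO-1 only TIMP2 and in ESO-26 only MMP14, and in ESO-51 none of the 3.

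Levels of different genes within a library were compared by deposited FPKM, the authors' count per gene length and library total. That total takes in counts of features outside the gene table, from 25.8% of a library in OE19 to 77.3% in JH_EsoAd1, so the same CPM gave a lower FPKM in JH_EsoAd1 than in the other libraries. MMP genes made up 97.8% of the summed FPKM of the 45 genes in OE19, of which MMP1 alone was 91.9% at 889.5 FPKM. The MMP share was 86.3% in SK-GT-4, 83.5% in ESO-26, 83.3% in OACP4_C, 63.1% in OE33, 50.8% in OAC_5.1_C, 36.9% in ESO-51, 33.1% in FLO-1 and 25.4% in JH_EsoAd1. MMP7 led in OACP4_C (86.9 FPKM), followed by MMP1 (34.95 FPKM) and MMP15 (25.6 FPKM). SK-GT-4 held MMP1 and MMP15 at similar FPKM (21.0 and 19.4) ahead of TIMP1 (3.85 FPKM).

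In ESO-26 the leading members were all membrane-type, namely MMP14 (4.06 FPKM), MMP17 (2.63 FPKM) and MMP16 (2.39 FPKM), and TIMPs gave 3.89% of the sum. TIMPs instead gave 58.2% in FLO-1 and 54.0% in ESO-51, where TIMP1 led with 12.5 and 6.99 FPKM. TIMP1, TIMP2 and MMP15 lay close together at the top in OAC_5.1_C (14.6, 11.7 and 11.6 FPKM). MMP14 led in OE33 (16.4 FPKM), ahead of TIMP1 (11.3 FPKM). JH_EsoAd1 was the library with the largest ADAMTS share, 32.7%, against 0.1105% (OE19) to 12.6% (ESO-26) in the other 8, and was led by ADAMTS15 (6.05 FPKM) and TIMP2 (5.68 FPKM).

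**Figure D4:**
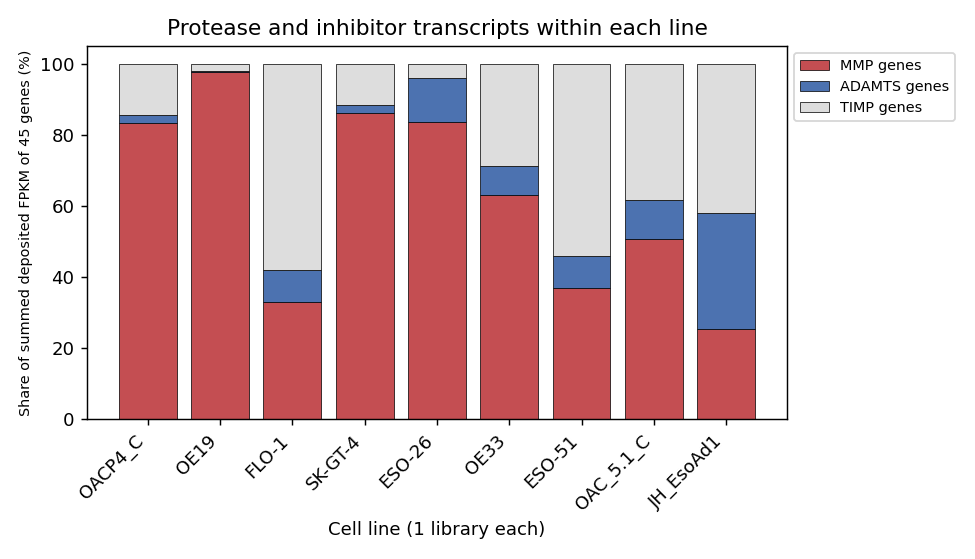
Stacked bars split the summed deposited FPKM of the 45 genes in each line into MMP, ADAMTS and TIMP genes (percent). MMP genes fill 97.8% in OE19, TIMP genes 58.2% in FLO-1 and ADAMTS genes 32.7% in JH_EsoAd1.

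Across the measured genes as a whole, the libraries differed in how many members stood apart. In OE33 17 of 36 lay over 2-fold above the median of the other 8 libraries and 3 below (median difference 0.70 log2 units), in OAC_5.1_C 14 and 4 (0.24), and in JH_EsoAd1 13 and 1 (0.71). ESO-26 had 6 above and 13 below (-0.50), SK-GT-4 2 and 8 (-0.06), and ESO-51 3 and 7 (-0.09). Some members counted above reached 1 CPM in that library alone, and so counted as measured only through it. They were MMP2 and ADAMTS2 in OE33, MMP20 and MMP23B in OAC_5.1_C and ADAMTS1 in ESO-26. All measured genes passed the same filter. Over all 19719 measured genes the medians lay between -0.02 and 0.03. The shares of all measured genes above and below were 12.8% and 10.9% in OE33, 12.2% and 6.97% in OAC_5.1_C, and 11.2% and 5.59% in JH_EsoAd1. They were 12% and 14.4% in ESO-26, 12.4% and 8.97% in SK-GT-4, and 12% and 10% in ESO-51. OAC_5.1_C held the highest level of 9 of the 36 genes, OE33 of 8, JH_EsoAd1 of 6, ESO-26 of 4, OACP4_C and OE19 of 3 each, FLO-1 of 2, ESO-51 of 1 and SK-GT-4 of 0. The same tally was not made over all measured genes, so it has no share to be set beside. It also counts TIMP1 and ADAMTS16, whose highest library changed with library size alone. OE33, with many members above, and ESO-26, with many below, were both low in epithelial markers (1189 and 163 CPM), whose part was not tested.

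**Figure D5:**
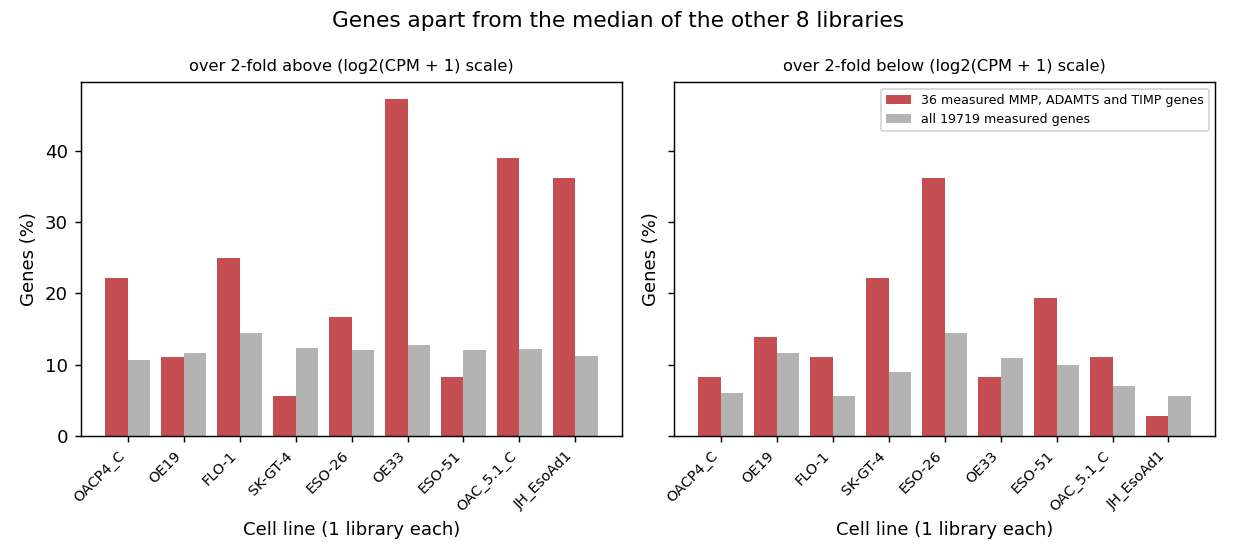
Bars give the percent of the 36 measured members (red) and of all 19719 measured genes (grey) that in each line lay over 2-fold above (left) or below (right) the median of the other 8, on the log2(CPM + 1) scale. Red exceeds grey most on the left in OE33 (47.2% and 12.8%) and on the right in ESO-26 (36.1% and 14.4%). Some members on the left counted as measured only through the line where they lie above.

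Other genes of the pathway were read from 5 lists of 46 genes in all, of which 45 were measured, 7 were called higher and 5 lower in 1 library (5.51% and 2.06% of all measured genes). Among inhibitors and binding partners 2 of 8 were higher, namely A2M, a broad plasma protease inhibitor, in OE33 (25.3 CPM, against at most 4.96 CPM) and TFPI2, an inhibitor of plasmin and several MMPs, in FLO-1 (239 CPM, against at most 0.634 CPM). RECK, a membrane-bound MMP inhibitor named after its values were seen, was 8.59 CPM in ESO-26 and 5.80 CPM in FLO-1 and had at most 1 count in the other 7 libraries. Of 9 activating proteases 1 was called, the plasminogen activator gene PLAT, higher in OE19 (1215 CPM, against at most 233 CPM). None of 8 ADAM sheddase genes was called.

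Of 13 AP-1 and ETS factor genes, which include known activators of MMP promoters, 1 was higher and 4 were lower. FOSB was higher in FLO-1 (45.7 CPM, against at most 7.91 CPM). FOSL2 (12.98 CPM), JUNB (6.34 CPM), ETV4 (0.692 CPM) and ETV5 (0.634 CPM) were lower in ESO-26, against at least 57.8, 31.1, 8.97 and 19.2 CPM in the others. Among 8 matrix substrate genes VCAN (132 CPM) and FBN1 (57.1 CPM) were higher in FLO-1, COMP was higher in JH_EsoAd1 and SDC4 was lower in ESO-26 (0.519 CPM).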

How the data were processed

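Per the labels, RNA from cultures under normal conditions was purified on columns and sequenced after standard Illumina preparation, and the design text mentions 3 technical replicates per line, which the single column of each line does not show. The authors' tools were FastQC 0.11.7, STAR 2.6.1d and R 3.6.1 on GRCh37, per the submitters' processing notes; the counter, annotation and strand setting are not given in the sources used here. The deposited table holds raw whole-number counts (a blank name, 0.00485% to 0.00965% of counts, was left out). Deposited FPKM and gene lengths came from the files of the lines, whose union counts equalled the table for all 45 genes, matched by Ensembl identifier; the column OACM5.1_C was taken as OAC_5.1_C.

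CPM were computed with TMM factors (edgeR 4.0.16, R 4.3.3; 17163 genes; 0.831 to 1.11) and taken as log2(CPM + 1). Without the factors the median over genes moved by -0.27 to 0.14, and with DESeq2 1.42.0 size factors by -0.06 to 0.04. Python 3.11.15 (numpy 2.4.6, scipy 1.17.1, pandas 2.3.3, matplotlib 3.10.9) was used otherwise. Calls were checked on simulated counts with changes larger than the 4-fold rule. These were placed in genes with higher mean levels than MMP20, ADAMTS1 and ADAMTS2, so the check does not cover calls of such low members. Poisson intervals are exact, and a count of 0 has a floor of 3 counts, or 0.0400 CPM in FLO-1 and up to 0.173 CPM in ESO-26. No test was made. Members and lists were chosen with earlier results of these data known. Genes at 10 CPM or more in any library are given with values, those at 1 to 10 CPM with their highest library and the rest by name.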

Additional observations from a re-analysis of the deposited data

How the results depend on the processing

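The 10 higher and 3 lower calls were the same genes with library size alone, with DESeq2 size factors and with the intersection-not-empty counts, the last chosen after seeing the data. With a pseudocount of 5 CPM 7 genes were called higher and 1 lower, and with 0.25 CPM 11 higher and 3 lower. A required gap of 1 log2 unit gave 14 higher and 3 lower calls. With deposited FPKM, and the pseudocount of 1 and minimum of 5 kept, 5 were called higher and 0 lower. FPKM values are divided by gene length and by totals that take in 25.8% to 77.3% of counts outside the table. Of the lost calls only that of ADAMTS15 met the minimum, so the loss of the others was fixed by the unit. Leaving out 1 library at a time gave 8 to 11 higher and 0 to 4 lower calls, with 0 lower without ESO-26. A range of at least 16-fold was found for 27 genes with a pseudocount of 0.25 CPM, 9 with 5 CPM and 4 with FPKM, against 16. The mean over members in place of the median gave 0.58 in OACP4_C, 0.33 in OE19 and -0.48 in ESO-51, against 0.09, -0.04 and -0.09. Leaving out 1 library moved the median differences to 0.42 to 0.82 in OE33, 0.50 to 0.72 in JH_EsoAd1, 0.19 to 0.39 in OAC_5.1_C, 0 to 0.16 in OACP4_C, 0.08 to 0.16 in FLO-1, -0.06 to 0 in OE19, -0.20 to -0.03 in SK-GT-4, -0.16 to -0.01 in ESO-51 and -0.56 to -0.43 in ESO-26. The low ends of OE33 and JH_EsoAd1 and the 0 of OACP4_C came without ESO-26, and the last also without ESO-51. These medians shrink as the pseudocount grows, to 0.28 in OE33, 0.22 in JH_EsoAd1 and -0.15 in ESO-26 with 5 CPM. Genes at a few counts in ESO-26, the shallowest library, are the least certain. No paired analysis was possible because each line has 1 library.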
